A study of Homo sapiens with 22 samples.

Results

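The regions described here are the CTCF sites and the open chromatin sites listed for human embryonic stem cells, sorted by whether the 2 kinds of site lie on top of each other. An ATAC peak list of H1 cells held 189982 regions on chromosomes 1 to 22 and X, and a CTCF peak list named for human embryonic stem cells (hESC) held 104785. Together they made up 294767 of the 532810 regions in the 4 peak lists used. A CTCF region that shared at least 1 bp with an ATAC region was classed as CTCF with ATAC (76104 regions), and any other as CTCF alone (28681). The ATAC regions were classed in the same way into ATAC with CTCF (78401) and ATAC alone (111581).

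H1 is an established human embryonic stem cell line, and its ATAC list came from 2 of the 22 libraries of the study, in which the transposase Tn5 cut open chromatin without any antibody. No sample label used here describes the hESC-named CTCF list, and its assay, its number of libraries and its exact cell line are unknown here. The study's other lists come from HFFc6, a line of immortalised human foreskin fibroblasts, untreated like H1 as far as the labels say. They are a CTCF list from 2 Cut&Tag libraries, in which an antibody tethers Tn5 to its target, and an ATAC list from 8 libraries, and they serve below as a readout that the classes did not use. Each list was 1 call for its group, with no values per library, so no test between classes was possible. The error given for a share is therefore its 95% Wilson interval, which covers counting error only, and its range over the 23 chromosomes.

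CTCF is a zinc-finger protein that reads a long, GC-rich DNA motif and halts the cohesin ring as it extrudes chromatin loops. The motif has a direction, and loops form mostly between sites that point towards each other. Bound CTCF pushes nucleosomes aside and sets them in ordered rows, so its sites are commonly found in accessible DNA, at gene promoters and also far from them. In stem cells the protein is needed for growth and for the insulation of neighbouring domains.

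Promoter stretches with a CTCF motif show what the classes look like in sequence. A pair of 9-letter parts of the motif was searched for on both strands, CCANNAGGG and AGGGGGCGC, which share the letters AGGG and can overlap. The promoters below come from RefSeq GRCh38.p14 (the same build as hg38) and run 5′ to 3′ in the direction of the gene, with a matched motif or its reverse complement in capitals. They are the promoters of highest fold enrichment in their class that hold a motif.
POLR2J3-UPK3BL2 (CTCF with ATAC, chr7:102572588-102572708, minus strand): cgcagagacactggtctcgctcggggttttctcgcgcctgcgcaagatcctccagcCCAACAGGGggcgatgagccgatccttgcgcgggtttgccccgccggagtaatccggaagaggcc
COG2 (CTCF with ATAC, chr1:230642353-230642473, plus strand): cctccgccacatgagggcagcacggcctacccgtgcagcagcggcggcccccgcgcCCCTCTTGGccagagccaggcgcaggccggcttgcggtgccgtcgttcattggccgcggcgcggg
EXD1 (CTCF with ATAC, chr15:41230758-41230869, minus strand): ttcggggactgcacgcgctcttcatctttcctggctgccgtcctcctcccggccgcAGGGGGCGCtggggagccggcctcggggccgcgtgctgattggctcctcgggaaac
DDX47 (CTCF with ATAC, chr12:12813217-12813337, plus strand): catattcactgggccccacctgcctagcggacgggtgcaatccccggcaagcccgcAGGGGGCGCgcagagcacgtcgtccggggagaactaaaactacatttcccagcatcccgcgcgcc
SMCP (CTCF without ATAC, chr1:152878160-152878280, plus strand): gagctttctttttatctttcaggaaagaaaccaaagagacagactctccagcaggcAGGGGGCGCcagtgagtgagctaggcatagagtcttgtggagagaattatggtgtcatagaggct
CCNB3 (CTCF without ATAC, chrX:50204641-50204761, plus strand): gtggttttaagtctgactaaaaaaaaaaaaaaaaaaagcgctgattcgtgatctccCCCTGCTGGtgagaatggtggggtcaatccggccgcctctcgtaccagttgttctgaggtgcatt
NANOG (CTCF without ATAC, chr12:7789309-7789401, plus strand): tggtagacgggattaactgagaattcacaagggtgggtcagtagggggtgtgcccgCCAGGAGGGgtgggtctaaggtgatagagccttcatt
LOC101928369 (ATAC without CTCF, chr21:43107661-43107739, plus strand): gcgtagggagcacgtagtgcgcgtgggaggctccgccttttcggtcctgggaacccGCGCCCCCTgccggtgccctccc
The first 4 promoters had CTCF fold enrichments of 47.9, 37.6, 37.2 and 35.6, where fold enrichment is the authors' ratio of signal over background at the peak. SMCP, a gene of the sperm mitochondrial sheath, CCNB3, a cyclin of meiosis, and NANOG, a core pluripotency factor, had 20.5, 13.9 and 10.9 and no ATAC region. LOC101928369, a long non-coding RNA gene, had an ATAC fold enrichment of 25.3 and no CTCF region in the stem cell list, although a CTCF region of the HFFc6 list covered the same ATAC region.

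As a check of the stem cell label, 8 of 10 pluripotency markers had an H1 ATAC region within 1 kb of a gene start, the exceptions being POU5F1, which encodes OCT4, and NANOG. POU5F1 had no listed start, so only the ends of the gene were scored, and any start between them was not. Markers of other cells were often open at the start too, with 4 of 6 fibroblast, 3 of 3 neural, 2 of 3 endoderm, 3 of 3 mesoderm and 2 of 3 blood markers, so these counts alone do not set the lines apart. Over all 19970 protein-coding genes, 15668 had an ATAC region there. Read depth is unknown from peak lists. In bulk libraries a site open in few cells and a site weakly open in many cannot be told apart.

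Most CTCF regions in the full lists lay in open chromatin, while fewer of the more numerous open regions carried CTCF. CTCF with ATAC made up 72.6% of CTCF regions (72.4 to 72.9%), and ATAC with CTCF made up 41.3% of ATAC regions (41.0 to 41.5%). Pairing was close to 1 to 1, with 71862 of 79117 overlapping pairs joining a single CTCF region to a single ATAC region. The CTCF share was even along the genome. It lay between 70.2% on chromosome 21 and 77.5% on chromosome 19, apart from chromosome X with 62.8%. The ATAC share varied far more, from 30.6% on chromosome 13 to 72.7% on chromosome 19, and, as it must by construction, it was low where many open regions were listed for each CTCF region. Chromosomes 4 and 13 each had 2.36 ATAC regions per CTCF region, and chromosome 19, the chromosome densest in genes, had 1.11.

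**Figure D1:**
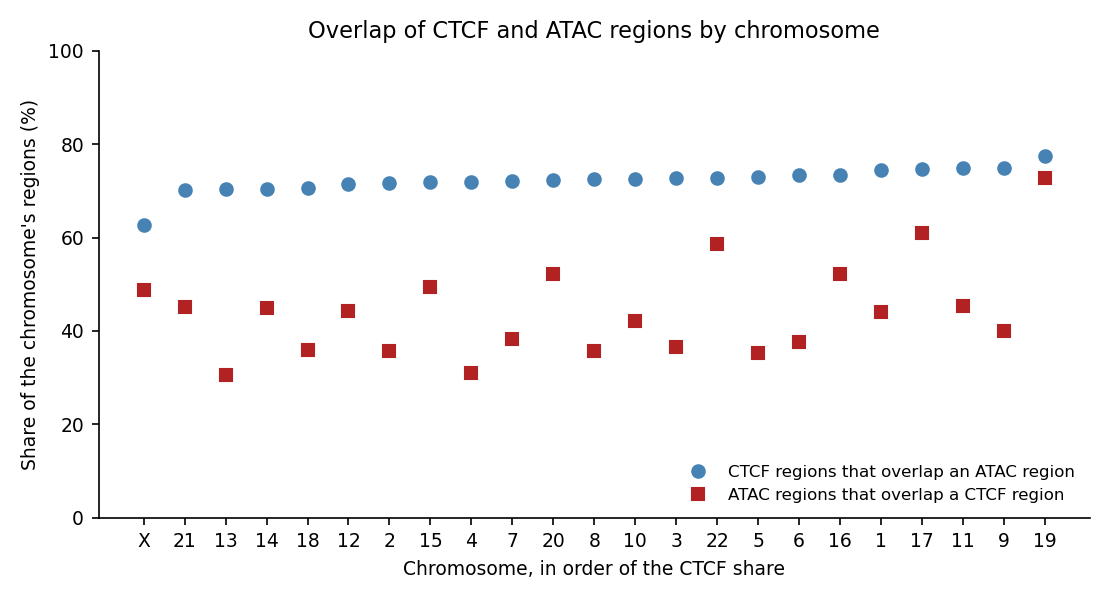
Share of CTCF regions that overlap an ATAC region (blue circles) and of ATAC regions that overlap a CTCF region (red squares), in percent, for each of the 23 chromosomes in order of the CTCF share. The CTCF share stays between 70.2 and 77.5% except on chromosome X (62.8%), whereas the ATAC share runs from 30.6 to 72.7%.

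Both shares depended on what counts as an overlap and on how many peaks were kept. When 50% of the CTCF region had to be covered, the shares were 49.3% of CTCF and 27% of ATAC regions, so that most CTCF regions no longer counted as open. Among peaks with a −log10 q of at least 10 they were 73.0 and 51.6%, so that most ATAC regions then carried CTCF. With the ATAC list cut to the length of the CTCF list, keeping the peaks of highest −log10 q, they were 63.5 and 64.4%, and the ATAC share was no longer the lower.

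CTCF sites in open chromatin were wider and stronger than those outside it. Their median width was 556 bp against 328 bp for CTCF alone, and their median fold enrichment was 8.09 (quartiles 4.71 and 14.5) against 4.71 (quartiles 3.54 and 8.25). Open sites with CTCF likewise had a median of 410 bp and a fold enrichment of 9.27, against 245 bp and 4.47 for ATAC alone. Each of these 4 differences had the same direction on 23 of 23 chromosomes. CTCF alone on chromosome X stood above the other chromosomes, with a median fold enrichment of 6.40 and a median width of 416 bp, where the others lay between 4.33 and 5.01 and between 313 and 348 bp. A wider region has more room to overlap, and with every region set to 500 bp around its summit the CTCF share was 72.2%, while the fold enrichment ratio of CTCF with ATAC over CTCF alone was 1.68 in place of 1.72. That ratio was 1.09, and the width ratio 1.03 in place of 1.70, when 50% of the CTCF region had to be covered, a rule that wide CTCF regions meet less easily.

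The stronger a CTCF site, the more often it was open. With the CTCF list split into 5 groups of nearly equal size by fold enrichment, 51.2, 68.0, 76.9, 81.3 and 87.0% of regions overlapped an ATAC region, from the weakest group to the strongest. The reverse relation was steeper: 11.1, 17.3, 34.8, 59.8 and 83.3% of ATAC regions overlapped CTCF across 5 groups of ATAC fold enrichment. The intervals of neighbouring groups did not touch in either list. Within CTCF with ATAC, the fold enrichments of CTCF and of its strongest ATAC region had a Spearman rho of 0.431 across 76104 regions, which share 2 library pools and are not replicates. In the HFFc6 lists the CTCF groups overlapped HFFc6 ATAC in 65.3% of the weakest and 96.6% of the strongest regions, so a larger part of the strongest CTCF regions lay outside the ATAC list in the stem cell lists (2715 of 20957) than in the HFFc6 lists (555 of 16460). The lists differ in depth and number of libraries, and the difference was not tested.

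**Figure D2:**
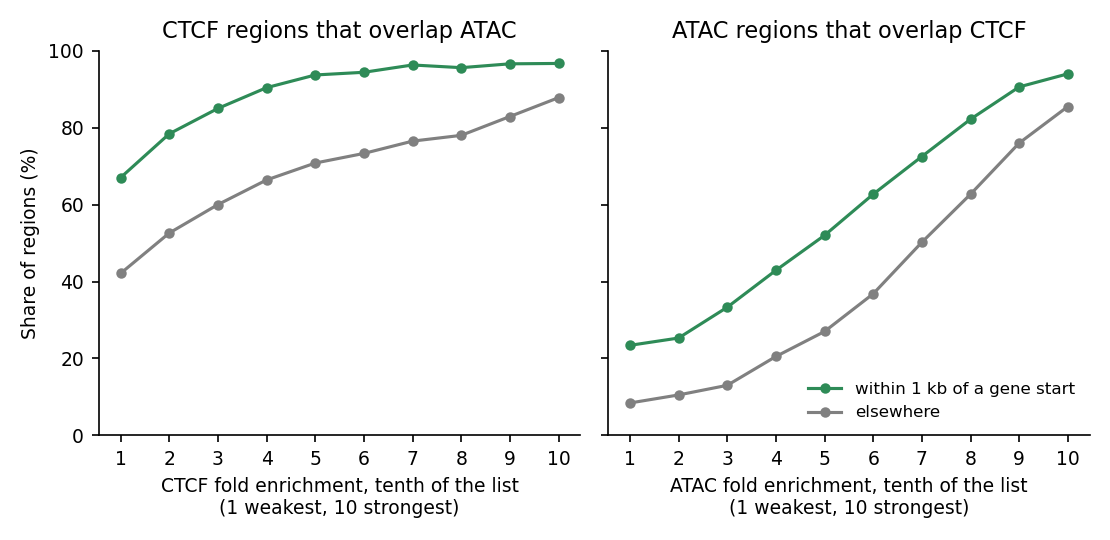
Share of CTCF regions that overlap ATAC (left) and of ATAC regions that overlap CTCF (right), in percent, for 10 groups of fold enrichment within each list, at gene starts (green) and elsewhere (grey). All 4 lines end far above where they begin, going from 67.0 to 96.7% and from 42.1 to 87.8% on the left and from 23.4 to 94.0% and from 8.41 to 85.5% on the right.

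CTCF sites at gene starts were open nearly without exception when strong. Of all CTCF regions within 1 kb of a gene start, 89.8% overlapped ATAC, against 67.2% elsewhere in genes and 71.2% between genes. In the strongest CTCF group the share was 96.7% at gene starts and 85.4% elsewhere, and in the weakest group 72.6 and 47.2%. ATAC regions carried CTCF at 65.5% of sites at gene starts, 37.7% in genes and 36.7% between them. Seen from the classes, 22.6% of CTCF with ATAC lay at a gene start (16.2% on chromosome 18 to 39% on chromosome 19), against 6.80% of CTCF alone and 8.26% of ATAC alone. CTCF alone lay inside genes away from their starts more often than CTCF with ATAC, at 59.4 against 45.9%, and about as often between genes, at 33.8 against 31.5%. The gene start share of ATAC alone was 16.8% among peaks with a −log10 q of at least 10, and that of CTCF alone was 3.64% within 500 bp, 11.9% within 2 kb and 4.24% with listed starts only.

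The summits, the points of highest signal in each peak, lay close together but seldom at the same base. The median distance from a CTCF summit to the nearest summit of an overlapping ATAC region was 63 bp, with 18.9% within 20 bp, 67.0% within 100 bp and 87.7% within 200 bp. In 66363 regions, 87.2% of CTCF with ATAC, the CTCF summit fell inside the ATAC region. The ATAC summit was at the lower coordinate in 49.4% and at the higher in 50.1%, so neither side along the chromosome was favoured. Summits were further apart at gene starts (median 79 bp) than elsewhere (59 bp). Over the 5 CTCF groups the median fell from 96 bp in the weakest to 51 bp in the fourth and was 63 bp in the strongest. The strongest group had a shoulder that the others lacked: 9.57% of its pairs were 100 to 120 bp apart, more than the 8.89% at 80 to 100 bp, and 7.97% were 120 to 140 bp apart. In the middle group these bins held 5.47, 7.68 and 4.09%, falling steadily.

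**Figure D3:**
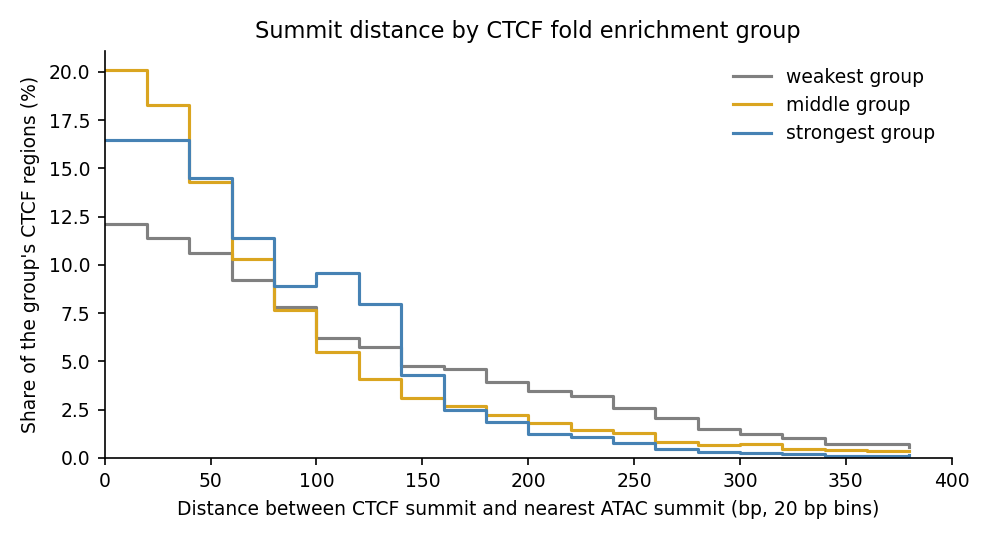
Distance between each CTCF summit and the nearest summit of an overlapping ATAC region, in bp, as the share of CTCF regions per 20 bp bin, for the weakest (grey), middle (gold) and strongest (blue) group by CTCF fold enrichment. The strongest group has a shoulder at 100 to 140 bp, with 9.57 and 7.97% of its regions in the 2 bins, where the middle group has 5.47 and 4.09%.

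Promoter windows allowed a look at where CTCF summits lie from the motif, which is not the distance between CTCF and ATAC summits. A window holds 250 bases before a gene start and 50 from it on, and 34788 windows were searched, none of them on chromosome 8. AGGGGGCGC was present in 1.92% of all windows and in 3.44% (3.07 to 3.85%) of the 8549 with a CTCF summit inside and an ATAC region. It was present in 5.71% (3.30 to 9.72%) of the 210 windows with a CTCF summit and no ATAC (12 windows), in 1.83% (1.40 to 2.40%) of the 2783 with an ATAC summit and no CTCF, and in 0.564% of the 15059 with neither. The first class was split anew into 5 groups by CTCF fold enrichment, with 1.89 to 5.01 in the weakest and 14.1 to 47.9 in the strongest. These groups of windows, not those of the whole CTCF list, are meant wherever promoter windows are described. Within the first class AGGGGGCGC rose with CTCF fold enrichment, from 1.31% of the weakest group to 7.66% (6.49 to 9.02%) of the strongest. The median GC content of the first 3 classes was 64.3, 55.5 and 65.0%, so the windows with CTCF and ATAC were no richer in GC than those with ATAC and no CTCF. It was 47.7% in windows with neither and 58.7% over all windows, and the part of GC in the contrasts with these was not tested. The 8187 windows outside these classes had a median GC content of 65.7% and held AGGGGGCGC in 2.77%. CCANNAGGG separated the classes less, with 6.98, 10, 6.04 and 6.23% against 6.45% of all windows, and 10.1% in the strongest group. Counting windows that a CTCF region overlaps, with or without its summit, gave 3.11% (2.04 to 4.71%) for AGGGGGCGC in windows without ATAC and 3.36% (3.08 to 3.67%) in windows with it, so the order of these classes turned and the higher share without ATAC was lost.

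Among 8-letter runs, the strongest group of windows and the windows with an ATAC summit and no CTCF differed both in parts of the motif and in other runs. The motif part AGGGGGCG was in 21.2 against 9.09% of windows and CAGGGGGC in 11.1 against 4.24%. GC-box letters were also more common, as in AGGGGCGG with 21.1 against 12.6%, and the CCAAT-box run CCAATCAG was in 9.88 against 3.81%. Over all 8549 windows with CTCF and ATAC, the ETS-type run ACTTCCGG was in 9.60 against 3.95%. The runs CCGCCGCC and CCCTCCCC were rarer in the strongest group, with 11.6 against 20.8% and 10.1 against 18.8%. Runs were picked for their difference, so these values are a description.

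In the strongest promoters the CTCF summit mostly lay to one side of AGGGGGCGC. Of 112 distinct pairs of a CTCF summit and an AGGGGGCGC match in the strongest group, the summit lay on the 5′ side of the motif, read as written, in 86 (76.8%, 68.2 to 83.6%) and on the 3′ side in 26. The median position was 80 bp to the 5′ side, and 53 summits lay between 50 and 125 bp on that side against 7 on the other. Motifs that ran along the gene had the summit on their 5′ side in 64 of 78 cases (82.1%, 72.1 to 89.0%). Motifs that ran against the gene had it there in 22 of 34 (64.7%, 47.9 to 78.5%), an interval that includes even sides. The CTCF summit had to lie inside the promoter window, so the room on each side of a motif depended on its place and orientation. The class set no such limit on ATAC or HFFc6 CTCF summits, and the part of this limit in the side counts was not tested. H1 ATAC summits of the same sites flanked the motif on both sides, 62 at the 5′ and 50 at the 3′ side, with 39 of 112 at 25 to 50 bp and 14 within 25 bp. HFFc6 CTCF summits over the same CTCF regions were spread in a like way when both orientations were pooled, with 55 on the 5′ and 51 on the 3′ side, 42 of 106 at 25 to 50 bp and 5 within 25 bp. By orientation, 32 of 75 (42.7%, 32.1 to 53.9%) lay on the 5′ side of motifs along the gene, an interval that includes even sides. Of those at motifs against the gene, 23 of 31 (74.2%, 56.8 to 86.3%) lay on the 5′ side. H1 ATAC summits lay 5′ in 40 of 78 at motifs along the gene and 22 of 34 at motifs against it. At motifs against the gene all 3 sets thus had more summits on the 5′ side. HFFc6 CTCF came from Cut&Tag, which cuts with Tn5 as ATAC does, and the part of the assay in this was not tested. In the weakest group the hESC-named summits lay 5′ of the motif in 9 and 3′ in 14 of 23 pairs. With CCANNAGGG no side was favoured in the strongest group, with 75 of 150 on each, although 40 summits lay between 50 and 125 bp on the 5′ side against 24 on the 3′ side. This look at sides was added after the distances had been seen.

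**Figure D4:**
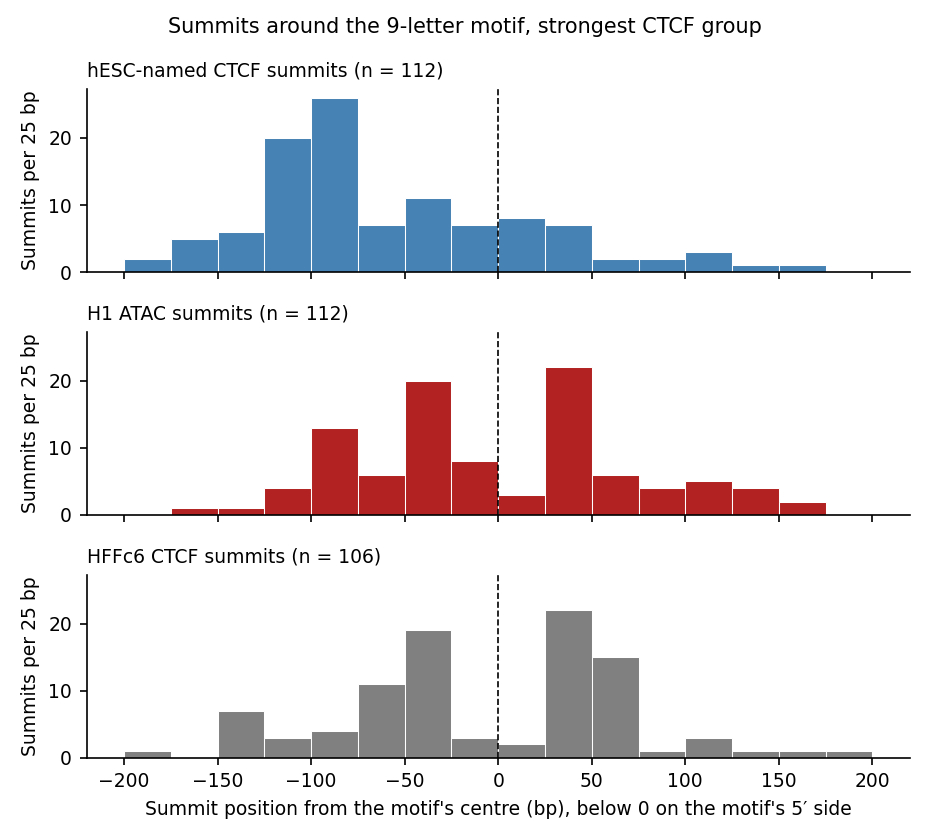
Number of summits per 25 bp around the centre of AGGGGGCGC in the strongest group of promoter windows by CTCF fold enrichment. Positions below 0 are on the 5′ side of the motif as written, for hESC-named CTCF (blue, 112 pairs), H1 ATAC (red, 112) and HFFc6 CTCF (grey, 106). The hESC-named CTCF summits crowd on the 5′ side, with 20 and 26 in the 2 bins between 75 and 125 bp, while the other 2 sets peak at 25 to 50 bp on both sides. Only the hESC-named CTCF summits were required to lie inside the promoter window.

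In the promoters printed above, the CTCF summit lay on either side of the motif and at varied distances. At DDX47, a DEAD-box RNA helicase gene, it was 119 bp on the 5′ side of the motif and 144 bp from the ATAC summit, and at EXD1 192 bp on the 5′ side and 175 bp from the ATAC summit. At POLR2J3-UPK3BL2 it was 54 bp on the 5′ side, and at COG2, a Golgi complex subunit gene, 153 bp on the 3′ side. Of the promoters without ATAC, SMCP and NANOG had the summit 20 and 15 bp on the 5′ side and CCNB3 had it 47 bp on the 3′ side.

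The CTCF regions were then set against the HFFc6 lists, which had no part in sorting them. CTCF with ATAC was found in the HFFc6 CTCF list in 47.8% of cases (47.4 to 48.1%) and in HFFc6 ATAC in 50.4%. CTCF alone was found there in 24.3% (23.8 to 24.8%) and 22.2%, and ATAC alone in 8.44 and 18.8%. Peaks with a −log10 q of at least 10 gave higher shares for CTCF alone, 44.1 and 34.0%, and for ATAC alone, 17.2 and 29.6%. Away from gene starts, however, a CTCF region of the upper strength groups was found in the HFFc6 CTCF list about as often with H1 ATAC as without it. In the 3 upper groups of CTCF fold enrichment the shares were 22.8% with and 23.1% without ATAC, then 45.9 and 47.0%, then 78.7 and 76.1%. At gene starts they differed, at 77.5 and 36.1%, 86.6 and 61.1%, and 93.5 and 79.4%, where the regions without ATAC numbered 255, 180 and 102. In the 2 lower groups away from gene starts the shares were 12.2 and 7.88%, and 14.9 and 12.1%. The HFFc6 ATAC list differed from this: away from gene starts it held more of the regions with H1 ATAC in each of the 5 groups, with 30.2 against 20.5%, 43.9 against 31.9% and 67.7 against 48.9% in the 3 upper ones.

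**Figure D5:**
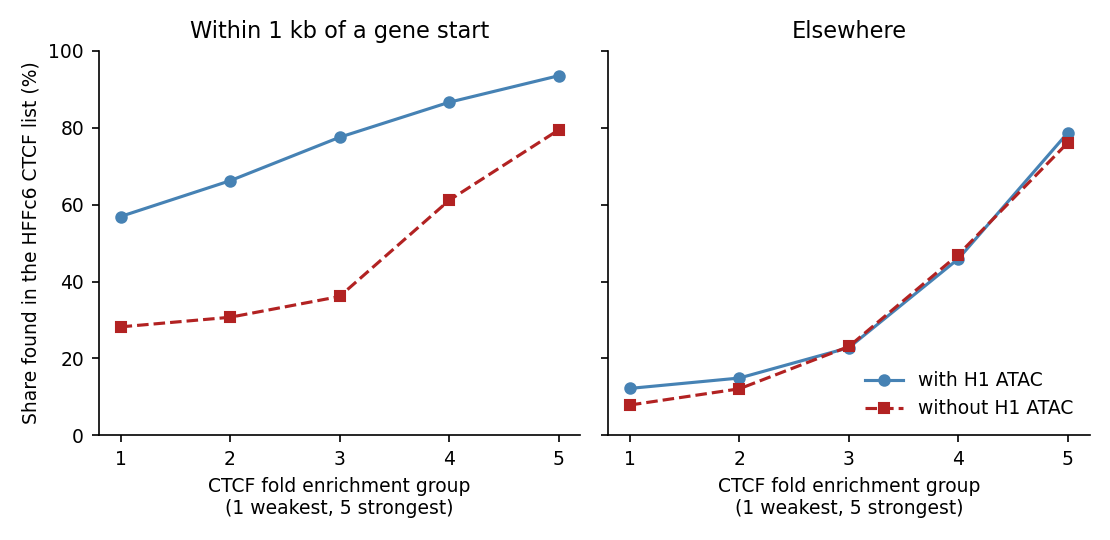
Share of hESC-named CTCF regions that overlap an HFFc6 CTCF region, in percent, by group of CTCF fold enrichment, for regions with H1 ATAC (blue circles) and without (red squares), at gene starts (left) and elsewhere (right). The lines lie apart at gene starts, at 77.5 and 36.1% in the middle group, and together elsewhere, at 22.8 and 23.1%.

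CTCF alone also held strong sites. Its strongest group held 2715 regions, of which 76.2% were found in HFFc6 CTCF and 48.9% in HFFc6 ATAC, and 3.76% lay at a gene start. These strong sites were also further from any open region than weak ones. The median gap from CTCF alone to the nearest H1 ATAC region was 4167 bp, and it was 2848 bp in the weakest and 7699 bp in the strongest group. Within 500 bp lay an ATAC region for 17.4% of the weakest and 2.98% of the strongest. The gap from ATAC alone to the nearest CTCF region had a median of 11393 bp and likewise went from 9537 to 16418 bp with ATAC fold enrichment. ATAC alone of the strongest group was found in HFFc6 CTCF less often, at 10.4% against 57.6% of ATAC with CTCF in the same group. At gene starts these shares were 48.3 and 87.3%, and elsewhere 5.94 and 47.7%.

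Single regions illustrate the extremes of the lists. Repeated or duplicated sequence was not scored and any filter for it is unknown here, so its part in these values was not tested. The strongest CTCF region with ATAC lay between genes on chromosome 19 (chr19:47941082-47941615, hg38), 50.6 kb from the start of BSPH1, a sperm-binding protein gene, with a fold enrichment of 52.2 and both summits on the same base. The second, chr17:43251459-43251897, was 20.2 kb from CCDC200 with 48.5 and summits 1 bp apart, and the third, chr7:102572551-102573071, covered the start of POLR2J3, an RNA polymerase II subunit gene, with 47.9 and summits 82 bp apart. All 3 were found in HFFc6 CTCF and HFFc6 ATAC.
The strongest CTCF region without ATAC, chr17:22521370-22521634, had a fold enrichment of 40.7, lay 829 kb from KCNJ18 and was 303852 bp from the nearest ATAC region. The next, chr8:15378454-15378956 near TUSC3 (40.0) and chr2:174462452-174463054 inside GPR155 (39.4), were 10045 and 2386 bp from one. These 3 were all found in HFFc6 CTCF, and the latter 2 also in HFFc6 ATAC.
The strongest ATAC regions without CTCF were chr17:19188000-19188268 over SNORD3A, a U3 small nucleolar RNA gene (fold enrichment 51.5), chr7:102490508-102490828 inside RASA4B (42.9) and chr9:61853994-61854262 at the start of the non-coding FAM27C (42.4). All 3 were found in HFFc6 ATAC, and the RASA4B region also in HFFc6 CTCF. The widest regions of the classes were 2699 bp at the start of LZTS2, 2422 bp without ATAC 723 kb from CWH43, and 1840 bp of ATAC alone at the start of GALNTL6.

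Long genes, several of them neuronal, collected the most CTCF with ATAC and ATAC alone, whereas the top 5 for CTCF alone held both long and short genes. A start with more sequence nearest to it collects more regions by construction, which favours long genes and wide gaps between genes. Counts per kb were not made. By nearest start, NTM, a neural cell adhesion gene, had 71 CTCF with ATAC, 16 CTCF alone and 71 ATAC alone. PTPRD, TENM3 and CTNNA2 were also among the top 5, with 61, 57 and 54 CTCF with ATAC. PTPRD, a receptor tyrosine phosphatase gene, also led ATAC alone with 222, before CSMD3 (200), LRP1B (181), BRINP3 (179) and PCDH9 (178). The median length of these top 5 genes was 1355 kb for CTCF with ATAC, 643 kb for CTCF alone and 1214 kb for ATAC alone, against 24.2 kb for all protein-coding genes. The top 5 for CTCF alone included UQCRFS1 (29), a gene of 7.83 kb, RBFOX1 (26), TMEM121 (26) and LSAMP (25). TMEM121, of 3.62 kb and beside the immunoglobulin heavy chain locus, differed from the rest in its balance, with 26 CTCF alone against 4 CTCF with ATAC and 1 ATAC alone. UQCRFS1, by contrast, had 47 CTCF with ATAC beside its 29 alone.

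At the level of genes, 13318 of 19970 protein-coding genes (66.7%) had CTCF with ATAC within 1 kb of a start. A further 204 (1.02%) had a CTCF and an ATAC region that did not overlap, 223 (1.12%) had CTCF alone, 2211 (11.1%) had ATAC alone, and 4014 (20.1%) had neither. The genes with regions apart numbered 125 with a window of 500 bp and 347 with 2 kb. Where a gene had a CTCF region at its start, the strongest such region was found in the HFFc6 CTCF list for 11476 of 13745 genes (83.5%). The lists below are read against these values. A start was listed for 15811 of the 19970 genes. For the rest either end of the gene counted as a start, so a region there may lie at the far end.

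Genes of the CTCF and cohesin machinery mostly carried CTCF in open chromatin at their own starts, 17 of 20 against 66.7% of all genes. The CTCF gene itself had a CTCF fold enrichment of 13.1 and an ATAC fold enrichment of 9.0. RAD21, the cohesin subunit that closes the ring, had 11.7 and 15.9 with summits 1 bp apart, and SMC3 had 11.1 and 12.2 with summits 7 bp apart. RAD21 and ESCO2 had no listed start, so their regions may lie at either end of the gene. The highest CTCF values of the list were at STAG1 (20.1) and ZNF143 (17.3), a zinc-finger factor of promoters. CTCFL, the testis paralogue of CTCF, and WAPL, which releases cohesin, had both kinds of region without overlap, and ESCO2, a cohesin acetyltransferase, had ATAC alone. The CTCF region was found in HFFc6 for 19 of 19 genes of the list, beside 83.5% of all genes with CTCF there.

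Pluripotency genes had CTCF with ATAC at 17 of 26 starts (65.4%, beside 66.7% of all genes). Few of their CTCF regions were shared with the fibroblast line: the region was found in HFFc6 for 4 of 19 genes (21.1%, beside 83.5% of all genes with CTCF there). The 4 were LIN28B, DNMT3B, TERF1 and JARID2. DNMT3B, the de novo DNA methyltransferase of early embryos, had a CTCF fold enrichment of 12.9. NODAL, a signalling ligand that maintains human pluripotency, had 11.6 with an ATAC summit 21 bp away, and DPPA2 had 11.2 with one 6 bp away, neither of them found in HFFc6 CTCF. NANOG had CTCF at 10.9 and no ATAC, as had DPPA3 at 3.72. The stem cell factor SOX2 had ATAC alone with a fold enrichment of 8.80, as did ZFP42 (10.2), LEFTY1 (2.58), KLF4 (4.16) and FOXD3 (4.92). POU5F1 and LEFTY2 had neither. Both were scored at the gene's ends because the reference table listed no start, as were LEFTY1 and TERF1.

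Genes of the early lineages were covered about as often as pluripotency genes or more. Of 17 neural progenitor genes, 12 had CTCF with ATAC (70.6%, beside 66.7% of all genes). Both apart were found at 2 and ATAC alone at 3 (beside 1.02 and 11.1% of all genes). Their median ATAC fold enrichment was 4.98, against 10.7 over all genes with ATAC at a start. OTX2, a forebrain homeobox gene, had 7.21 for CTCF and 7.24 for ATAC, and SOX1 had 2.49 and 4.98. Of 16 endoderm and mesoderm genes, 14 had CTCF with ATAC (87.5%, beside 66.7% of all genes). The CTCF fold enrichment was 15.5 for SOX17 and 15.3 for CER1, an inhibitor of NODAL. SOX17 and FOXA2 had no listed start and were scored at either end of the gene. FOXA2, a master regulator of endoderm, had CTCF alone at 2.53, and MSGN1 had ATAC alone. In these 2 lists the CTCF region was found in HFFc6 for 7 of 14 and 7 of 15 genes, beside 83.5% of all genes with CTCF there.

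Genes used in every cell were nearly uniform. All 15 housekeeping genes had CTCF with ATAC (beside 66.7% of all genes), among them GAPDH, a glycolysis enzyme gene, with a CTCF fold enrichment of 3.89. So did 45 of 46 cytosolic ribosomal protein genes, the exception being RPL14 with ATAC alone. Their median ATAC fold enrichment was 13.8 against 10.7 over all genes, and RPS15 had the highest CTCF value of the list, 30.0. Each CTCF region of both lists was found in HFFc6, 15 of 15 and 45 of 45, beside 83.5% of all genes with CTCF there.

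In the lists of genes of differentiated cells, CTCF with ATAC was found at 10 of 20 fibroblast genes, 5 of 15 blood genes and 3 of 10 liver genes (50, 33.3 and 30.0%, beside 66.7% of all genes). Neither kind of region was found at 3, 8 and 6 (beside 20.1% of all genes), and ATAC alone at 5, 2 and 1 (beside 11.1%). An ATAC region of any kind was found at 17 of 20 fibroblast genes, beside 15668 of all 19970. The fibroblast list also held 2 genes with both apart. COL1A1, the main collagen of fibroblasts, had a CTCF fold enrichment of 19.4 and VIM, the intermediate filament vimentin, had 17.0. COL6A3, THY1 and POSTN had neither. SPI1, a master regulator of myeloid cells, had CTCF at 24.8 with an ATAC summit 19 bp away, and CD8A had 20.1. The blood genes HBB, HBA1 and GATA1 and the liver genes ALB, TTR and AFP had neither, while APOB had CTCF at 22.5 and TAT at 16.7. COL1A1, SPI1, APOB and TAT had no listed start, so their regions may lie at either end of the gene. THY1, HBB, HBA1 and TTR, with neither kind of region, also had no listed start and were scored at the gene's ends.

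Imprinted genes, expressed from 1 parental copy and often governed by CTCF, had CTCF with ATAC at 19 of 25 starts (76.0%, beside 66.7% of all genes). They had both apart at 2, ATAC alone at 1 and neither at 3 (beside 1.02, 11.1 and 20.1% of all genes). The CTCF region was found in HFFc6 for 13 of 21 (61.9%, beside 83.5% of all genes with CTCF there). MEST had a CTCF fold enrichment of 20.2 and L3MBTL1 18.4. MAGEL2, in the Prader-Willi region, had CTCF at 14.2 with the ATAC summit 1015 bp away, and NDN beside it had ATAC alone. PEG10 and SGCE, which share a start, shared 1 CTCF region of 5.68, so they are not independent. Both were scored at the gene's ends because no start was listed.

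The clustered protocadherins, cell adhesion genes of neurons that are chosen by looping between CTCF sites, had the highest share of genes with CTCF alone among the 14 lists. Of 53 genes, 37 had CTCF with ATAC (69.8%, beside 66.7% of all genes) and 12 had CTCF alone (against 1.12% of all genes). Of the rest, 1 had ATAC alone and 3 had neither. By family CTCF alone was at 3 of 15 alpha, 3 of 16 beta and 6 of 22 gamma genes. PCDHB7 had CTCF at 24.0 without ATAC, PCDHA1 at 17.3 and PCDHGA2 at 17.0, whereas PCDHB15 had 29.7 with an ATAC summit 26 bp away. The alpha genes had the widest CTCF regions, with a median of 1284 bp (692 to 1978) against 827 bp in the beta and 726 bp in the gamma family. In 6 of 12 alpha genes with both, the CTCF summit lay 556 to 691 bp from the nearest ATAC summit within overlapping regions, as at PCDHA2 (612 bp) and PCDHA10 (691 bp). No beta or gamma gene had such a distance above 500 bp. Alpha promoters are known to have a second CTCF site in the following exon, and exons were not scored here. The CTCF region was found in HFFc6 for 6 of 15 alpha, 12 of 15 beta and 17 of 19 gamma genes, beside 83.5% of all genes with CTCF there. PCDHGA12 and PCDHGC5, both without a listed start, shared 1 CTCF region of 23.9, so they are not independent.

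The HOX genes, homeobox genes of positional identity along the body, had CTCF with ATAC at 17 of 39 starts (43.6%, beside 66.7% of all genes). Both apart were found at 1, CTCF alone at 3, ATAC alone at 8 and neither at 10 (beside 1.02, 1.12, 11.1 and 20.1% of all genes). The CTCF region was found in HFFc6 for 12 of 21 genes (57.1%, beside 83.5% of all genes with CTCF there). HOXA10 had the highest CTCF value, 17.8, followed by HOXA5 (15.5) and HOXB5 (13.9). HOXA5, HOXB5 and HOXC6 had no listed start and were scored at either end of the gene. HOXC4, HOXC5 and HOXC6 shared 1 CTCF region of 5.39. HOXA2, HOXA6, HOXA7 and HOXA11 had neither.

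The 2 largest families lay on opposite sides of the share over all genes. Of 392 olfactory receptor genes, 351 had neither, 23 had ATAC alone, 5 had CTCF alone, 2 had both apart and 11 (2.81%) had CTCF with ATAC. Of 246 zinc finger genes on chromosome 19, 209 (85.0%) had CTCF with ATAC, 13 had ATAC alone and 21 had neither. Over all genes 66.7% had CTCF with ATAC, 11.1% ATAC alone and 20.1% neither. The zinc finger family had a median ATAC fold enrichment of 14.6 against 10.7 over all genes and a median CTCF fold enrichment of 10.9 against 8.48. Their CTCF region was found in HFFc6 for 203 of 212 genes, against 9 of 18 olfactory receptor genes and 83.5% of all genes with CTCF there. Chromosome 19 as a whole had the highest overlap in both directions, and the family was not set against the other genes of that chromosome.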

How the data were processed

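Peaks of H1 ATAC and of the hESC-named CTCF list were compared on chromosomes 1 to 22 and X. The submitters' processing notes name BWA, MACS2, bedtools and build hg38. Tool versions, filters, replicate handling, any Tn5 offset and any background control are unknown here, and an offset or fragment extension could move a summit. Of the deposited columns, the integer score was left aside. The fold enrichment, a ratio of signal over background, and the −log10 q-value were used as deposited, and no peak had a q above 0.05. Column 10 of the deposited lists gave the summit. Peaks of 1 list never overlapped (0 merged). Peak values are the authors' and were compared within a list. Numbers of libraries, not read depth, are known.

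Overlap, gaps and summit distances were computed with Python 3.11.15, pandas 2.3.3 and numpy 2.4.6, and tested on simulated data, with 0 disagreements. A gene start was the start in the RefSeq GRCh38.p14 promoter table (15811 of 19970 protein-coding and 11383 of 18177 lncRNA genes) and otherwise either end of the gene. Gene lists (14) were matched by symbol. H19, KCNQ1OT1, GNAS-AS1, MEG3 and HYMAI are not protein-coding there and were left out, and TDGF1 is listed as CRIPTO. For a gene, the strongest CTCF and the strongest ATAC region within 1 kb are given, and the summit distance runs from that CTCF region to the nearest summit of an overlapping ATAC region.

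The text names members of the lists, the 3 regions of highest fold enrichment and the widest of each class, the 5 genes with most regions, and the promoters shown. The regions, lists and rules were chosen with earlier results of these data known. Alternatives tried were stricter peaks, other overlap rules, equal numbers, fixed widths, other gene windows and another ranking. The labels do not say whether a group's libraries are separate cultures. Single values of a few genes that the naming rule covers are not reported here.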

Additional observations from a re-analysis of the deposited data

Results flagged for a closer look

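Some peaks of the stem cell lists lay on contigs other than chromosomes 1 to 22 and X. There were 259 of these in the hESC-named CTCF list (0.247% of its peaks), with a median fold enrichment of 6.19 and a median width of 372 bp. The H1 ATAC list held 275 (0.145%), with medians of 6.70 and 298 bp. They are given here because the choice of chromosomes left them out, and nothing was tested on them.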

How the results depend on the processing

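No paired analysis was possible because each list is 1 pooled call with no values per library, and for the same reason no library could be left out. Of 82 alternative values, 15 stayed within the 95% counting interval or within 1.5 times the count and 67 moved. No ratio of classes crossed 1 and the rise with strength kept its sign, but some orders turned. ATAC regions with CTCF became the majority with stricter peaks and with equal numbers, CTCF regions with ATAC became the minority with 50% covered, and AGGGGGCGC was no longer more common without ATAC than with it when region overlap was counted. The gene start share of CTCF alone, lower than that of ATAC alone in the main setting, was the higher with 50% covered and within 2 kb. The intervals are narrow, so small shifts count as moved. The cause was not tested, except that a changed window, width or overlap rule changes a share by construction. Listed starts only, stricter peaks for the HFFc6 shares, gene windows for classes of genes and region overlap for promoters were chosen after seeing the data.

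With a −log10 q of at least 10, CTCF regions with ATAC were 73.0% and ATAC regions with CTCF 51.6%. The gene start share was 24.7% for CTCF with ATAC and 16.8% for ATAC alone, and the summit distance was 56 bp. The ratio of classes was 1.21 and 1.16 for CTCF and ATAC width and 1.27 and 1.36 for CTCF and ATAC fold enrichment. CTCF with ATAC was found in HFFc6 CTCF in 61.5% and in HFFc6 ATAC in 60.2%, CTCF alone in 44.1 and 34.0%, ATAC with CTCF in 61.4 and 60%, and ATAC alone in 17.2 and 29.6%.

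With 50% of the CTCF region covered, the 2 overlap shares were 49.3 and 27%, the gene start shares 26.7% (CTCF with ATAC), 10% (CTCF alone) and 9.50% (ATAC alone), the distance 59 bp, the width ratios 1.03 and 2.06 and the fold enrichment ratios 1.09 and 2.10. With the CTCF summit inside the ATAC region these values were 63.3 and 34.7%, then 23.5, 9.10 and 9.36%, 53 bp, 1.45 and 1.80, and 1.65 and 2.10. With equal numbers they were 63.5 and 64.4%, then 24.3, 7.79 and 11.7%, 60 bp, 1.73 and 1.31, and 1.88 and 1.39. With 500 bp around the summit they were 72.2 and 40.6%, then 21.5, 9.28 and 9.32%, and fold enrichment ratios of 1.68 and 2.03.

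The 3 gene start shares were 19.6, 3.64 and 6.06% within 500 bp, 26.2, 11.9 and 10.8% within 2 kb, and 17.8, 4.24 and 5.85% with listed starts only. Genes with CTCF and ATAC apart numbered 125 within 500 bp and 347 within 2 kb. Ranking by −log10 q gave a rise of 36.7 percentage points in the CTCF share from the weakest to the strongest group, in place of 35.8. AGGGGGCGC was in 3.11% of promoters that a CTCF region overlaps without ATAC, in place of 5.71%, and in 3.36% with ATAC, in place of 3.44%.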
